A study of Mus musculus with 11 samples.

Results

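Men1 and 7 genes whose products belong to or work with KMT2 histone methyltransferase complexes were described here. These are 8 of the 55421 genes that the count files list. The members are Men1, Kmt2a, Kmt2b, Psip1, Rbbp5, Ash2l, Wdr5 and Kdm6a, and they were matched by gene symbol. They were chosen by measured values of these same libraries, namely the reads per library and the difference between knockouts and controls within batches. That difference is therefore given for the members as a description, with no test. The libraries hold ribosome-bound RNA from whole cerebellum of mice at postnatal day 56. The 4 knockouts (KO) had the genotype Pcp2Cre;Tie2flox/flox;Rpl22HA/HA and the 7 controls (WT) the genotype Pcp2Cre;Rpl22HA/HA, so the controls too carried Cre and the tagged ribosomal protein. Tie2 is the angiopoietin receptor encoded by Tek. Pcp2Cre drives recombination in Purkinje cells, the output neurons of the cerebellar cortex, and the pull-down of tagged ribosomes was made from homogenate of the whole tissue, so RNA carried over from other cells can add to each value. Input RNA was not analysed here. The study asked what Purkinje cells that lack Tie2 translate differently.

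Menin, the protein of Men1, is a scaffold that holds the histone methyltransferases KMT2A and KMT2B at promoters, where they methylate lysine 4 of histone H3, a mark of active promoters. Menin binds the amino-terminal end of KMT2A and, together with it, the chromatin reader LEDGF made by Psip1. WDR5, RBBP5 and ASH2L form the core that every KMT2 enzyme needs for full activity, and UTX, made by Kdm6a, removes methyl groups from lysine 27 of the same histone within KMT2C and KMT2D complexes.

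Reference promoters from RefSeq (GRCm38.p6, 250 bases before to 50 after a start) were found for 5 of the 8 members, and Kmt2b, Psip1 and Ash2l had no entry. The sequence before the first of 3 listed Men1 starts is shown because Men1 had almost no reads in the knockouts; it lies at chr19:6334729-6334978 on the plus strand, and the capitals mark a CCAAT motif 121 bases before the start.
Men1: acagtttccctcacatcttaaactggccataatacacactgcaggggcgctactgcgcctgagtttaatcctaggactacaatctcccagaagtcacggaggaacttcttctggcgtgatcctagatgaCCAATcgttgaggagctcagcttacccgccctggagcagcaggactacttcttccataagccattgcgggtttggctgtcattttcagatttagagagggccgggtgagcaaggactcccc
The Kmt2a window is shown because it runs from the promoter into the first codons of the amino-terminal end that menin binds. It lies at chr9:44881240-44881539 on the minus strand, and the capitals run from the start codon to the end of the window.
Kmt2a: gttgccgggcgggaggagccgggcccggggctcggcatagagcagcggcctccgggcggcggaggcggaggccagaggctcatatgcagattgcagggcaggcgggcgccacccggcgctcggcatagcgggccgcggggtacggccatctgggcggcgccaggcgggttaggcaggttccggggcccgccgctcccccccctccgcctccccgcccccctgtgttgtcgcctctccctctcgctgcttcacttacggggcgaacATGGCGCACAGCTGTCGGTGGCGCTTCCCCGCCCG
The 300-base window of Kmt2a was 75.7% G and C with 36 CpG sites, and that of the first Men1 start 53.3% with 11, against a median of 52.7% and 7 over all 32851 listed promoters. Searched on both strands, CCAAT occurred in the Men1 window alone among the 5 matched members and in 37.4% of all promoters. The motif GGGCGG occurred in the windows of Men1, Kmt2a, Wdr5 and Kdm6a and in 35.7% of all promoters, and CACGTG in that of Kdm6a alone and in 7.15% of all. A match describes these letters only and is not a binding site.

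Each library is called by its animal tag. The knockouts held 2.58 to 4.20 M reads in genes and the controls 4.09 to 5.14 M. The labels give 3 batches, without saying what they are, with 2 knockouts and 1 control in batch 1, 1 and 1 in batch 2, and 1 and 5 in batch 3. Knockout M456, the only knockout of batch 3, had the fewest reads, 2.58 M. Tek had 0 to 14 reads in the knockouts and 0 to 40 in the controls, too few to check the genotype labels. Summed CPM (read counts scaled to a common library total with TMM factors) of 15 Purkinje cell markers ran from 6329 to 8610 in the knockouts and from 6479 to 7489 in the controls, and none was at 0 in all libraries. Of markers of other cell types, the sums ran from 514 to 1458 against 370.5 to 801 for granule cells, 829.1 to 1443 against 732 to 921 for Bergmann glia and astrocytes, 319 to 982 against 277 to 719 for oligodendrocytes, and 24.7 to 127 against 19.3 to 100 for endothelium and microglia. The highest of each of these 5 sums was that of M456. In the glial sum, Aldoc gave 454 of a mean of 805 CPM in the controls and 439 of 1058 in the knockouts. Its fitted log2 change was -0.07, so that sum shows less relative change than the rest of its list. Which cells the Aldoc reads came from was not tested. None of these other cells' markers was at 0 in every library. The part of other cells in the results below was not tested. In bulk RNA, fewer cells and less RNA per cell cannot be told apart.

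Men1 was close to absent in the knockouts and low in the controls. It lies on chromosome 19 from 6334979 to 6340894 (ENSMUSG00000024947). In the knockouts it had 1 read in F371, 0 in M374, 0 in M390 and 1 in M456. In the controls it had 6 to 60 reads with a median of 24, the lowest in M386 and the highest in M480. No knockout reached the lowest control, so the groups did not overlap. The levels were 0.173 CPM ± 0.205 (SD, n = 4) in knockouts and 5.52 ± 3.37 (SD, n = 7) in controls. The spread within the controls was wide, from 1.39 to 11.9 CPM.

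The deficit of Men1 reads stood in each batch, on very few reads. In batch 1 the knockouts had 1 read and the control 18, a control-to-knockout ratio of 29.5 (exact 95% interval 4.67 to 1231). In batch 3 the counts were 1 and 156, a ratio of 16.7 (2.96 to 664). In batch 2 they were 0 and 6, so that the control was at least 1.96-fold higher, taking 3 counts in the batch 2 knockout as the floor. These intervals and the floor cover counting error only and hold no spread between animals. Reads that carry no molecular identifier cannot count as separate molecules. Men1 was chosen on these counts, so the intervals describe them and test nothing. The fitted log2 fold change was -4.42 ± 0.85 (SE), a value that depends on the prior count when a group holds 2 reads. With 0.5 CPM added to each mean, the log2 ratios within batches 1 to 3 were -2.91, -1.92 and -2.97, a scale that understates the change of a gene this low. Men1 passed the filter on low counts only through the controls, of which 6 reached 10 reads.

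**Figure D1:**
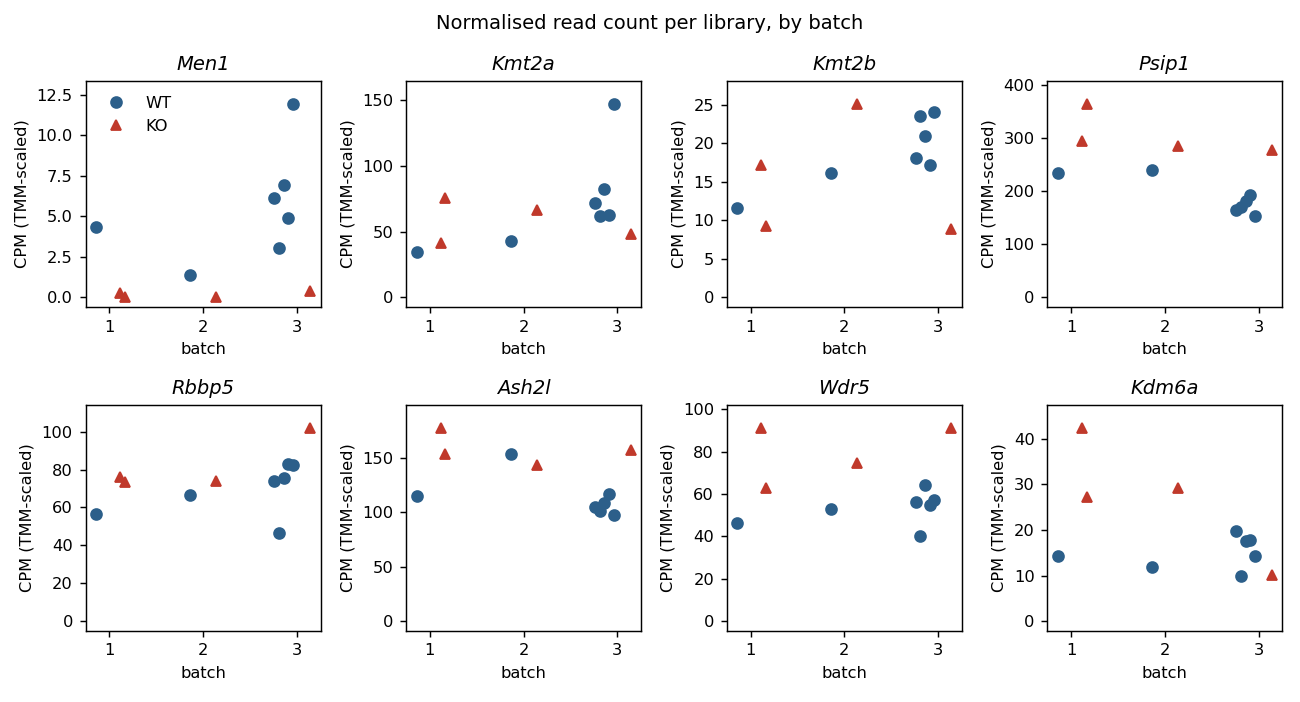
Normalised read count of each member (TMM-scaled CPM, linear axis) in every library by batch, with knockouts as triangles and controls as circles, set side by side so that they can be told apart. The 4 knockouts sit at or below 0.402 CPM for Men1 and at or above 278 CPM for Psip1, outside the range of the 7 controls in both cases.

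The enzymes that menin carries did not share the pattern of Men1. Kmt2a (chromosome 9, 44803355 to 44881352, ENSMUSG00000002028), the methyltransferase that binds menin most directly, had 41.2 CPM in F371, 76.0 in M374, 66.4 in M390 and 48.6 in M456, against 34.9 to 147 with a median of 62.9 in the controls. All 4 knockouts lay inside the control range. Control M480 stood above the other controls, which ended at 82.6 CPM. The fitted log2 fold change was 0.12 ± 0.36 (SE). Its sign did not hold across batches, where the log2 ratio of mean CPM was 0.74, 0.62 and -0.80 in batches 1 to 3. The fitted change turned negative without M374, without M379, or without either library of batch 2, M390 or M386 (lowest -0.20). Leaving out either of the last pair removes the same comparison. Without a batch term the fitted change was -0.31. Without M480 it was 0.23.

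Kmt2b (chromosome 7, 30568855 to 30589056, ENSMUSG00000006307), the closest relative of Kmt2a, had 17.1 CPM in F371, 9.20 in M374, 25.1 in M390 and 8.83 in M456. The controls ran from 11.6 to 24.0 with a median of 18.1. The knockouts M374 and M456 were below every control, M390 was above all of them, and F371 was within. The knockouts thus spread on both sides of the controls, with means of 15.1 ± 7.68 and 18.8 ± 4.40 CPM (SD, n = 4 and 7). The fitted log2 fold change was -0.18 ± 0.37 (SE), with within-batch values of 0.18, 0.61 and -1.19, and it was 0.38 without M456.

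Psip1 was higher in the knockouts, without overlap of the groups. It lies on chromosome 4 from 83455680 to 83486463 (ENSMUSG00000028484) and encodes the reader that tethers the menin and KMT2A complex to chromatin. Its level was 295 CPM in F371, 364 in M374, 285 in M390 and 278 in M456. The controls ran from 153 to 240 CPM with a median of 182, and all lay below the lowest knockout. Means were 306 ± 39.7 CPM in knockouts and 191 ± 33.9 in controls (SD, n = 4 and 7). Within batches the log2 ratio was 0.49, 0.25 and 0.69, and the fitted log2 fold change was 0.51 ± 0.11 (SE). The controls of batches 1 and 2, at 234 and 240 CPM, were above all 5 controls of batch 3, which ended at 194, so the groups' means hold a difference between batches that the fit takes out. Without a batch term the fold change was 0.68.

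The 3 core subunits shared by all KMT2 enzymes had positive fitted changes of unequal size. Wdr5 (chromosome 2, 27515147 to 27536535, ENSMUSG00000026917), which binds the catalytic subunit, had 91.1 CPM in F371, 62.7 in M374, 74.4 in M390 and 91.2 in M456, against 40.2 to 64.3 with a median of 54.8 in the controls. Only M374 fell inside the control range. Its within-batch log2 ratios were 0.72, 0.49 and 0.74 and its fitted change 0.67 ± 0.18 (SE). Ash2l (chromosome 8, 25816000 to 25847694, ENSMUSG00000031575), which stimulates the enzyme together with RBBP5, had 177, 154, 144 and 157 CPM in F371, M374, M390 and M456, against 97.8 to 154 with a median of 108. The groups met through 1 control, M386, at 153.7 CPM, the only control above 117.1. Its log2 ratios were 0.52, -0.10 and 0.56, so batch 2, which holds M386, went the other way. The fitted change was 0.38 ± 0.13 (SE), and 0.58 without M386. Rbbp5 (chromosome 1, 132477348 to 132505665, ENSMUSG00000026439), the scaffold of the core, had 76.3, 73.3, 74.0 and 102 CPM in the same order, against 46.5 to 83.0 with a median of 73.9. Only M456 was above the controls. The ratios were 0.40, 0.16 and 0.49 and the fitted change 0.38 ± 0.18 (SE).

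Kdm6a, the lysine 27 demethylase on the X chromosome (18160862 to 18279936, ENSMUSG00000037369), had 42.4 CPM in F371, 27.3 in M374, 29.3 in M390 and 10.0 in M456. The controls ran from 10.0 to 19.7 CPM with a median of 14.3. The first 3 knockouts lay above every control, and M456 lay at the bottom of the control range. The within-batch log2 ratios were accordingly 1.26, 1.28 and -0.64. The fitted change was 0.62 ± 0.41 (SE), and it was 1.30 without M456 and 0.22 without control M379. Kdm6a escapes X inactivation, and the animals tagged F, F371 and F473, had the highest level of their groups. With 1 such animal per group this was not tested, and among animals tagged M alone the fitted change was 0.50. Its Y-linked relative Uty had 0 reads in F371 and F473 and 59 to 172 in the libraries tagged M.

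**Figure D2:**
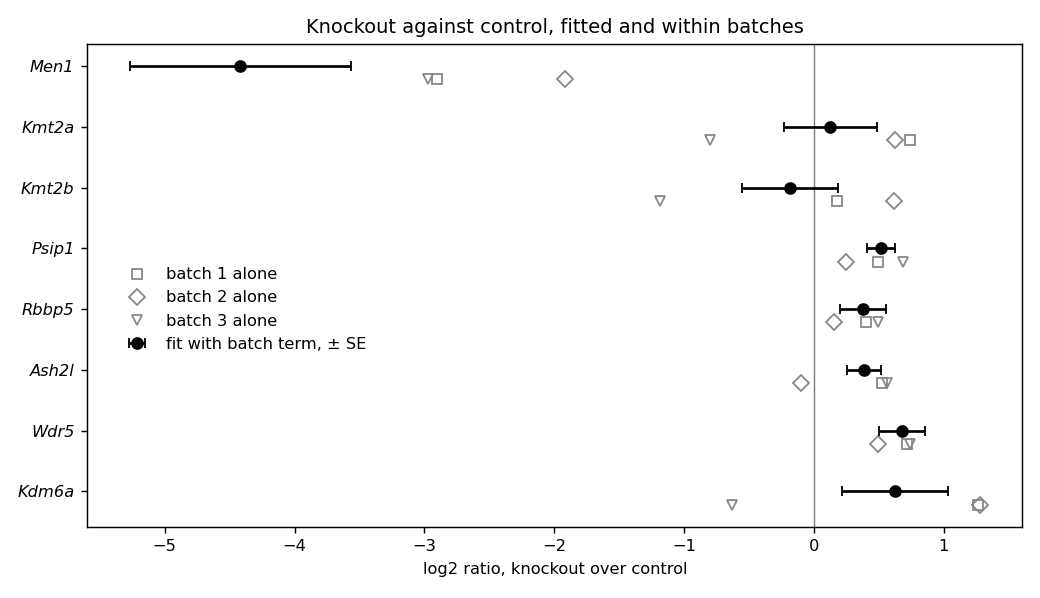
Log2 change of each member, knockout over control, with the fitted value and its SE and the ratio of mean CPM within each of the 3 batches (0.5 CPM added to both). Men1 is negative in all 3 batches, Psip1, Rbbp5 and Wdr5 are positive in all 3, and Kmt2a, Kmt2b, Ash2l and Kdm6a change sign between batches.

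Across the members the median fitted log2 change was 0.38, against -0.02 over all 13375 tested genes. All 8 members passed the filter, Men1 only through the controls. At an adjusted p under 0.05 in the fit, 3 were higher in the knockouts (Psip1, Wdr5 and Ash2l), 1 was lower (Men1) and 4 were neither, while the background was 10.9% of tested genes higher, 13.4% lower and 24.4% in either direction. In 2 members (Men1 and Psip1) the groups' CPM did not overlap, as in 13.0% of tested genes. The members were selected on this contrast, so nothing is read from these counts. The same holds for how the members' calls fared under other settings, which is given as a limit only. Of 20 alternative settings, the call was lost in 2 for Men1, 2 for Psip1, 3 for Wdr5 and 10 for Ash2l, while Rbbp5 passed in 1. Without M456 the calls of Psip1, Wdr5 and Ash2l were lost, and batch 3 then held no knockout. Of the 7 members other than Men1, 7 had a positive log2 ratio in batch 1, 6 in batch 2 and 4 in batch 3. Batch 3 differed from the others in Kmt2a, Kmt2b and Kdm6a, each lower in M456 than in the mean of its 5 controls. This was the library with the fewest reads and the highest sums of other cells' markers, and whether these bear on the 3 values was not tested.

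The relation of each member's level to depth was described over the 7 controls, where genotype was constant. Reads per library, the controls' included, were among the values that chose the members, so r and rho of log2 CPM against the log2 library total are given with no test. The points share batches, with 5 of the 7 in batch 3. Rbbp5 had the closest relation, with r = 0.92 and rho = 0.96. Its r was 0.96 without the 2 libraries farthest from the median total, M476 and M480, and its slope was 2.28 log2 units per doubling of the total, and 2.51 within batch 3. Kmt2a followed with r = 0.75 and rho = 0.79, and r = 0.77 without those libraries. Wdr5 had r = 0.74 and rho = 0.82, and r = 0.64 without them. Men1 had r = 0.70 and rho = 0.79, and its r was 0.47 without M476 and M480, so the relation rests in part on those libraries. Its slope of 4.91 log2 units per doubling was the steepest of the 8. Within batch 3 the slope was 4.2 for Men1, 2.54 for Kmt2a (4.05 over all controls) and 1.40 for Wdr5 (1.30).

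In the remaining members r was smaller in size. Kdm6a had r = 0.59 and rho = 0.64, and Kmt2b r = 0.37 and rho = 0.36. Psip1 had r = -0.48 and rho = -0.39, and Ash2l r = -0.26 and rho = -0.14. The r without M476 and M480 was 0.67, 0.70, -0.64 and -0.35 for Kdm6a, Kmt2b, Psip1 and Ash2l. The slope was -0.96 over all controls and -0.03 within batch 3 for Psip1, -0.46 and 0.15 for Ash2l, 1.05 and -0.35 for Kmt2b, and 1.62 and 1.65 for Kdm6a. The negative relations of Psip1 and Ash2l were thus not seen within batch 3, nor was the positive one of Kmt2b. Over all tested genes the median r was 0.12, with quartiles of -0.39 and 0.47. Knockouts F371, M374 and M456 had fewer reads than every control, so depth and genotype largely go together in these libraries. Knockout M390, at 4.20 M, was above controls M379 (4.19 M) and M476 (4.09 M). The control of its own batch 2 had 4.34 M. With the log2 library total as a covariate Men1 was at -3.47, Psip1 at 0.32 and Wdr5 kept a positive sign, as did Ash2l at 0.17.

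**Figure D3:**
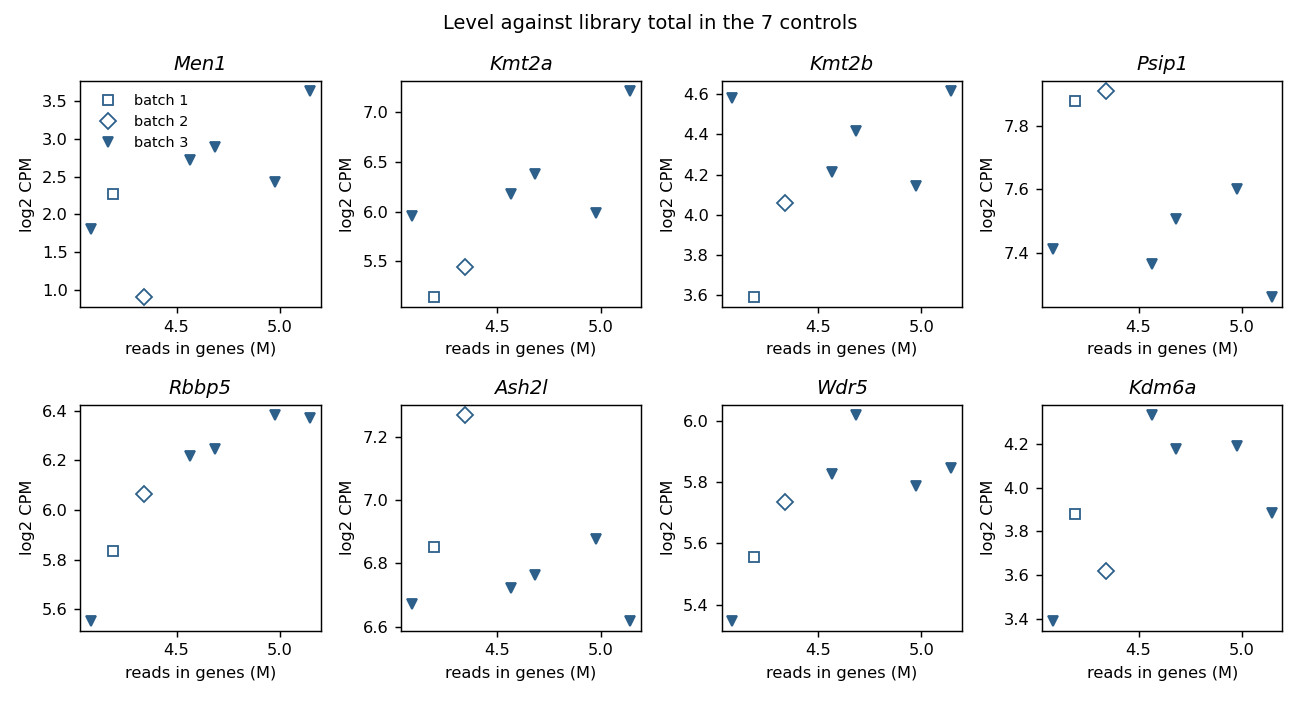
Log2 CPM of each member against reads in genes (M, linear axis) in the 7 controls, 1 point per library with its batch marked. Rbbp5 follows the library total most closely (r = 0.92), and for Psip1 the controls of batches 1 and 2 stand above those of batch 3.

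Among 12013 tested genes of at least 1 mean CPM, the genes whose log2 CPM followed that of Men1 most closely over the 11 libraries were Pcyt2 (r = 0.98), Rnf10 (0.98), Def8 (0.98), Kifc2 (0.97) and Chrd (0.97). All 5 were lower in the knockouts, with fitted log2 changes of -0.94, -0.83, -0.84, -0.88 and -1.99 in that order. The ranking itself favours such genes, because Men1 did not overlap between the groups, so this direction is no separate result. Over the 7 controls alone other genes led, namely Irf2bpl (0.99), Lhfp (0.99), Tab1 (0.98), Kctd13 (0.98) and H2afy2 (0.98), and none of these passed the threshold between the groups. These 5 had fitted log2 changes from -0.36 to 0.31. Of the other members, Psip1 had r = -0.92 with Men1 over the 11 libraries and -0.72 over the 7 controls, and Ash2l -0.88 and -0.80. Kmt2a had 0.40 and 0.79. The values for Wdr5 were -0.58 over all libraries and 0.50 over the controls, for Rbbp5 -0.16 and 0.55, for Kdm6a -0.45 and 0.57, and for Kmt2b 0.40 and 0.38. Wdr5, Rbbp5 and Kdm6a thus had an opposite sign over the controls, where genotype was constant. Over the 11 libraries each r also holds the difference between knockouts and controls. The libraries share depth and batch, and Men1 rests on few reads, so these correlations are given as descriptions only.

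Of the 4 nearest tested genes around Men1 on chromosome 19, 2 on each side, 3 were lower in the knockouts. Map4k2, a kinase gene that begins 96 bases after Men1 ends (6340990 to 6355619), fell from 33.4 ± 12.4 to 12.1 ± 3.81 CPM (log2 change -1.16 ± 0.36 SE, adjusted p = 0.0317, edgeR). Sf1 (6363673 to 6378038), which encodes a splicing factor, fell from 10.0 ± 5.47 to 1.74 ± 1.54 CPM (-1.95 ± 0.51, adjusted p = 0.0130). On the other side Atg2a (6241478 to 6262304), an autophagy gene, had 2 to 4 reads in the knockouts and 13 to 64 in the controls, and its groups did not overlap (-2.35 ± 0.63, adjusted p = 0.0160). Ehd1 (6276896 to 6300096), between Atg2a and Men1, did not pass (-0.88 ± 0.67, adjusted p = 0.354). In a window of 500 kb on each side, chosen after these values were seen, 10 of 26 tested genes other than Men1 were lower (38.5%, against 13.4% of all tested genes) and 1 was higher, Capn1. Their median log2 change was -0.31. The strand setting of the counting is not given in the sources used here, so reads at the border of Men1 and Map4k2 cannot be told apart. The calls of Atg2a, Map4k2 and Sf1 were lost without M456, without M379, and when the library total was added to the fit. Map4k2 was then at -0.66 without M456 and at -0.10 with the total in the fit, and its call was also lost without F371 (adjusted p = 0.0590, edgeR) and among animals tagged M (adjusted p = 0.0872).

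**Figure D4:**
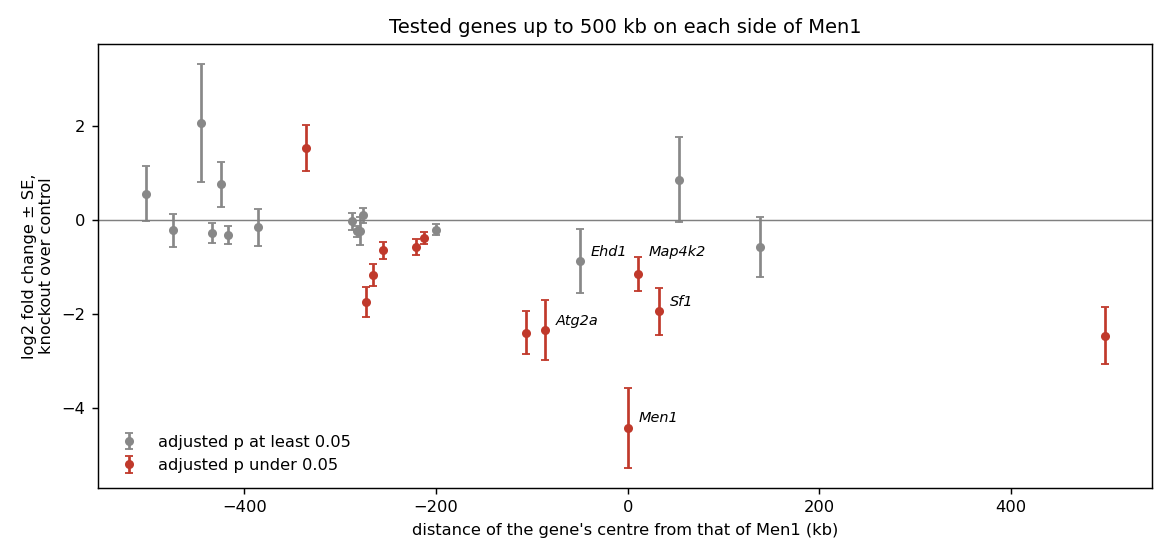
Fitted log2 change, knockout over control, with its SE, of the tested genes around Men1 against the distance of their midpoints from that of Men1 in kb. Men1 is the lowest point (-4.42), and 20 of the other 26 genes are negative.

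The other genes of the pathway changed in both directions. Of 73 genes in 6 lists, 57 were tested, and 11 were higher (19.3%), 3 were lower (5.26%) and 43 did not pass (edgeR, adjusted p under 0.05, background 10.9% and 13.4%). Their median log2 change was 0.12. Of 15 tested genes of the COMPASS and KMT2 complexes, 3 were higher and 2 lower, with a median of 0.05. Cxxc1, the CpG-binding subunit of the SETD1 complexes, fell from 38.1 ± 10.8 to 5.98 ± 7.06 CPM (SD, n = 7 and 4; log2 change -2.64 ± 0.55 SE, adjusted p = 0.00509), and its groups did not overlap. The acetyltransferase gene Kat8, whose product joins KMT2A in a complex, fell from 51.6 ± 5.14 to 23.2 ± 12.1 CPM (-1.25 ± 0.26, adjusted p = 0.00505). Both were least changed in batch 2, with within-batch log2 ratios of -0.55 for Cxxc1 and -0.31 for Kat8 against -3.89 and -1.28 in batch 1 and -2.94 and -1.95 in batch 3. Bod1 rose (0.74 ± 0.17, adjusted p = 0.00776), with 0.44 and no call without M456, as did Hcfc2 (0.61 ± 0.17, adjusted p = 0.0175) and the SETD1 subunit Wdr82 (0.39 ± 0.12, adjusted p = 0.0269), the last named after its value was seen. The other enzymes of the family did not pass, with log2 changes of 0.12 for Kmt2c, -0.19 for Kmt2d, 0.60 for Setd1a and -0.41 for Setd1b. Dpy30, the remaining core subunit, was at -0.12 ± 0.14.

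The lists farther from the methyltransferases are given beside a background of 24.4% of tested genes called, and no test compared them. Of 13 tested binding partners of menin outside these complexes, Smad1 (0.68 ± 0.16, adjusted p = 0.00780) and Smad3 (0.66 ± 0.23, adjusted p = 0.0443), transcription factors of BMP and TGF-beta signalling, were higher and none was lower. Of 6 relatives and partners of Psip1, Hdgf, the founder of its family, was higher (0.45 ± 0.13, adjusted p = 0.0204), with a log2 change of 0.16 without M456 and -0.047 once the library total entered the fit. Of 15 target genes of menin and KMT2A, 5 were tested, since the Hox genes and others had too few reads, and Igfbp2 was higher (1.68 ± 0.40, adjusted p = 0.00860; 1.11 and no call without a batch term). Cdkn1b, a cell cycle inhibitor that menin is known to activate, was at 0.49 ± 0.17 (adjusted p = 0.0514, not passed). Of 7 tested H3K4 demethylase genes 0 passed by edgeR, and 2, Kdm1b and Rcor1, had an unadjusted p under 0.05. By DESeq2's Wald test 1 of the 7 passed, Kdm1b. By edgeR 2 passed without a batch term, and 1 with DESeq2 size factors, without F371, without M476 or without M479. Of 11 tested lysine 27 methylation genes 4 were higher and 1 lower.

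Within that list, genes of the Polycomb complex PRC2 went both ways or did not pass. Suz12, a core subunit, rose from 80.1 to 164 CPM (0.95 ± 0.20, adjusted p = 0.00486). The accessory subunit Aebp2 rose from 121 to 223 CPM (0.77 ± 0.15, adjusted p = 0.00377), and Jarid2 from 106 to 149 (0.47 ± 0.13, adjusted p = 0.0217). The catalytic subunit Ezh2 rose (1.37 ± 0.41, adjusted p = 0.0248; named after its value was seen) from 8.99 to 17.8 CPM. Its paralog Ezh1, the form typical of cells that no longer divide, fell by 0.51 ± 0.15 (adjusted p = 0.0232). The other PRC2 genes tested did not pass, with log2 changes of 0.35 for Eed, -0.07 for Rbbp4, -0.30 for Rbbp7 and -0.06 for Mtf2. Kdm6b, the relative of Kdm6a, was at 0.02 ± 0.18. Beside these values, 6 of 11 tested granule cell markers and 6 of 11 of Bergmann glia and astrocytes were higher. Their medians were 1.00 and 1.02. For oligodendrocytes 3 of 10 were higher and for endothelium and microglia 3 of 8, with medians of 0.82 and 1.05. Of 15 Purkinje cell markers 4 were higher and 1 was lower, with a median of 0.09. The background was 10.9% higher and 13.4% lower. The part of these cells in the result was not tested. Of the 14 pathway calls, 0 passed without knockout M456 and 3 without control M379, and 0 passed once the library total entered the fit. Leaving out M456 or M379 leaves a batch with only controls or only knockouts, which then adds nothing to the fitted contrast.

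**Figure D5:**
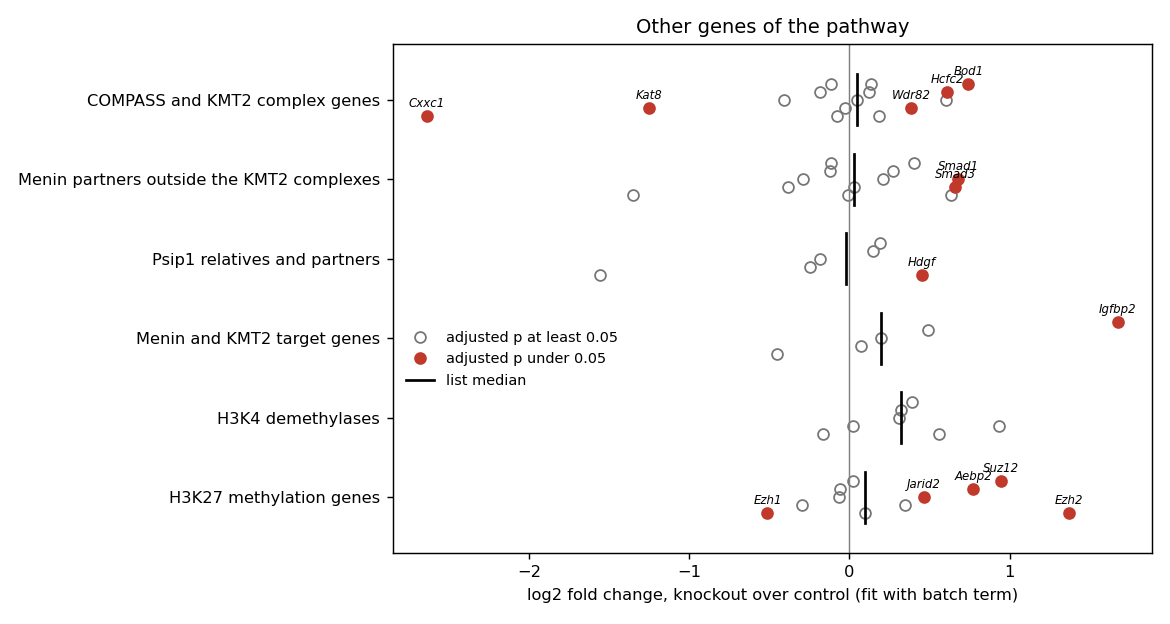
Fitted log2 change, knockout over control, of the 57 tested genes in 6 pathway lists, with filled points at an adjusted p under 0.05 and a bar at each list's median. The medians lie between -0.02 and 0.32, with Cxxc1 and Kat8 farthest to the left among the filled points and Igfbp2 and Ezh2 farthest to the right.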

How the data were processed

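Each of the 11 libraries, 1 per animal tag, came as a table of whole-number read counts per gene that the authors deposited. Per the submitters' processing notes they were made with STAR, HTSeq and the GRCm38 build; versions, strand setting and removal of duplicates were not given in the sources used. Lines that name no gene stayed out of totals and tests: alignments outside genes were 6.11% to 12.1% of all counted, ambiguous ones 3.82% to 4.52% and those at several places 7.91% to 10.6%. The 13375 genes that passed filterByExpr (count minimum 10) were fitted with edgeR 4.0.16 in R 4.3.3, with TMM scaling, batch and group as terms, the quasi-likelihood test, 7 residual degrees of freedom and Benjamini-Hochberg adjustment over all of them (threshold 0.05). The fit was also run on simulated counts with known changes. Those counts held no link between a gene's level and depth, so they say nothing on depth and genotype going together. The SE given with a fitted log2 change is the size of that change divided by the square root of its F statistic. It restates the test and is not a separate estimate of error. Within-batch log2 ratios of mean CPM used a pseudocount of 0.5 CPM. Nothing beyond the animal tags says that the libraries are separate biological replicates, so p-values measure the spread between these libraries.

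The members and the gene lists were chosen with earlier results of these data known. Genes named by rule were the 8 members, up to 4 called genes per pathway list by smallest p, the 2 nearest tested genes on each side of Men1, the 5 genes most correlated with Men1 over all libraries and over controls, and Tek. Any other gene in the text, such as Cdkn1b, Capn1, Dpy30 or Kdm6b, falls outside that rule and was named with the values known. Not all of these are marked. A planned permutation test of the members' relation to depth in the controls is not reported, since reads per library chose the members, and r is given as a description. Positions and promoters came from RefSeq tables of the same build. Alternatives were no batch term, other scalings and filters, the Wald test of DESeq2 1.42.0, the library total as covariate, thinned counts, animals tagged M only, other pseudocounts and each library left out in turn. The labels' replicate tags are not shared between the groups.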

Additional observations from a re-analysis of the deposited data

Results flagged for a closer look

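Of 16 sets of values, 8 members in each group, 3 held a library whose gap to the nearest other exceeded Dixon's 95% critical value. Chance gives such a gap in about 1 of 20 independent sets. These sets share libraries and the members were chosen on their values, so no excess is read from the count. Kmt2a in control M480 was at 147 CPM and the next control at 82.6, a gap of 0.575 of the range against a critical value of 0.568. M480 was also the control with the most reads, 5.14 M. Rbbp5 in knockout M456 was at 102 CPM and the next knockout at 76.3 (0.896 against 0.829), and M456 had the fewest reads, 2.58 M. Ash2l in control M386 was at 154 CPM and the next control at 117 (0.656 against 0.568). Whether depth bears on these values was not tested.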

How the results depend on the processing

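With the library total as a covariate, 0 of 13375 genes (1841 at an unadjusted p under 0.05, edgeR; 4174 called by DESeq2 without the covariate) and 0 of the 14 pathway genes passed, Hdgf turned to -0.047, Bod1, Kat8, Smad1, Igfbp2, Atg2a and Map4k2 were at 0.12, -0.73, 0.33, 1.07, -1.30 and -0.10, Hcfc2 at 0.94, and Men1, Kmt2a, Kmt2b, Psip1, Ash2l and Kdm6a were at -3.47, 1.11, 0.52, 0.32, 0.17 and 1.67. Men1 was at -5.04 after thinning, Psip1 at 0.68 without a batch term, and 9 pathway genes passed among animals tagged M. Leaving out each library in turn gave 335 (without knockout M456) to 4649 (without knockout M390) genes called, with 522 without control M379, and 0 to 19 pathway genes. The ranges were -4.79 to -4.02 for Men1, -0.20 to 0.69 for Kmt2a, -0.52 to 0.38 for Kmt2b, 0.39 to 0.63 for Psip1, 0.25 to 0.58 for Ash2l and 0.22 to 1.30 for Kdm6a. Men1, Psip1, Rbbp5, Ash2l, Wdr5 and Kdm6a kept their sign under all 20 alternatives, Kmt2b under 18 and Kmt2a under 15. Without M456 batch 3 held no knockout, and without M379 batch 1 held no control. Leaving out M390 or M386 likewise left batch 2 with a single group. With batch as a term, such a batch no longer compares knockouts with controls. The causes of these changes were not tested. With pseudocounts of 0.1 and 2 CPM the within-batch ratios of Men1 were -4.18 and -1.56 in batch 1, -3.89 and -0.76 in batch 2, and -3.74 and -1.84 in batch 3. Smad3 lost its call under 13 of 20 alternatives.

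No paired analysis was possible because the groups share no replicate tags. The planned order of members by level in the controls was not run, since it needs transcript lengths. The batches hold 1 to 5 libraries of a group, so no batch was tested alone. Men1 rests on 2 knockout reads, and depth and genotype largely go together, so their parts cannot be told apart.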
